A study of Mus musculus with 6 samples.

Results

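The genes of cholesterol and fatty acid synthesis and the SREBP regulators above them were described in mouse uterus with and without *Foxo1*. The 35 members were taken by name, as the rows of the deposited gene table whose symbol was on the list, and the rule used no measured value. The list itself was chosen with earlier results of these data known. All 35 were present among the 23420 genes of the table, 34 under their own symbol and *Msmo1* under its older symbol *Sc4mol*. Each member passed the filter on low values, a mean count over the genotypes of at least 10, which 15696 genes of the table passed.

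The study deleted *Foxo1*, a forkhead transcription factor, with Cre recombinase driven by the progesterone receptor gene, and asked which uterine transcripts differed at the time of embryo implantation. The controls were *Foxo1f/f* females, which carried the floxed alleles without Cre, and the conditional knockouts were *PgrCre/+ Foxo1f/f* females, written *Foxo1d/d* here. All mice were of the C57BL/6J strain, 8 weeks old, and at day 4.5 of a pseudopregnancy begun by mating with vasectomized males, so that no embryo was present. RNA of whole uteri was sequenced from 3 libraries a genotype, 6 in all, each from a pool of 2 mice. The Cre is active where the progesterone receptor is made, which covers the epithelial, stromal and muscle compartments of the uterus and also the pituitary, ovarian granulosa cells and the mammary gland, so the deletion was not limited to 1 uterine compartment or to the uterus. Vascular cells keep FOXO1 in this model.

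The table gives for each gene 1 mean read count a genotype, averaged by the authors over the 3 libraries, and these means are printed below with *Foxo1f/f* first and *Foxo1d/d* second. The counts of the mean control library summed to 26125014 and those of the mean knockout library to 27257963. After division by these totals, the difference of a gene is given as a log2 ratio with the control as denominator, so that a positive value means a higher level in the knockout. No value of a single library was used here and the authors' own test results were set aside, so the differences are given with no SD, no test and no replicate check. The 95% intervals are Wilson intervals of the summed counts, which cover counting error only and not the spread between pools of mice. Because whole tissue was sequenced, fewer cells of a type and less RNA per cell cannot be told apart.

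Cholesterol and fatty acids are both built from acetyl-CoA in the cytosol. The mevalonate pathway makes isoprenoid units, which are joined into squalene, closed to the sterol ring and trimmed to cholesterol, while acetyl-CoA carboxylase and fatty acid synthase make palmitate, which desaturases and elongases then modify. SREBP transcription factors control both branches: SCAP carries them from the endoplasmic reticulum to the Golgi when sterols are low, and the INSIG proteins hold them back when sterols are plentiful. In the uterus these products serve membranes and stored lipid.

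The targeted gene, *Foxo1*, averaged 3941 counts in controls and 1456 in knockouts, which left 0.354 times the control level (log2 ratio -1.50, interval -1.55 to -1.45). The floxed part is 1 coding exon and the counts cover the whole gene, so reads from the undeleted exons and from cells without Cre both remain in this value. The tissue markers matched the label. The stromal markers were led by *Dcn* (1365 and 1266 CPM, counts scaled to a common library total), the smooth muscle markers by *Myh11* (2323 and 1724), the epithelial markers by *Cdh1* (170 and 183) and the endothelial markers by *Pecam1* (373 and 319).

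Most synthesis genes had similar levels in both genotypes, and 4 of the 7 that were past 1.5-fold belonged to fatty acid synthesis. At least 1.5-fold higher in *Foxo1d/d* uteri were 6 of 35 members (17.1%), against 5.43% of all genes that passed the filter: *Thrsp*, *Pmvk*, *Acss2*, *Scd1*, *Fasn* and *Dhcr7*. At least 1.5-fold lower was 1 member (2.86%), *Me1*, against 3.51% of all genes. A smaller limit, a log2 ratio of 0.32 in either direction, was passed by 8 higher members (22.9%) against 12.5% of all genes, and by 2 lower ones (5.71%) against 9.0%. The members that this limit added were *Idi1* and *Elovl5* among the higher and *Insig2* among the lower. The median log2 ratio was 0.14 over the 35 members and 0.02 over all genes, and 23 members had a ratio above 0 and 12 below. The member nearest to the 1.5-fold limit on its inner side was *Dhcr7* at 0.60 and on its outer side *Idi1* at 0.51, where the limit lies at 0.58. For the smaller limit they were *Insig2* at -0.35 and *Scd2* at 0.30. The counting interval left out 0 for 28 members, which at this depth includes differences far under either limit.

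**Figure D1:**
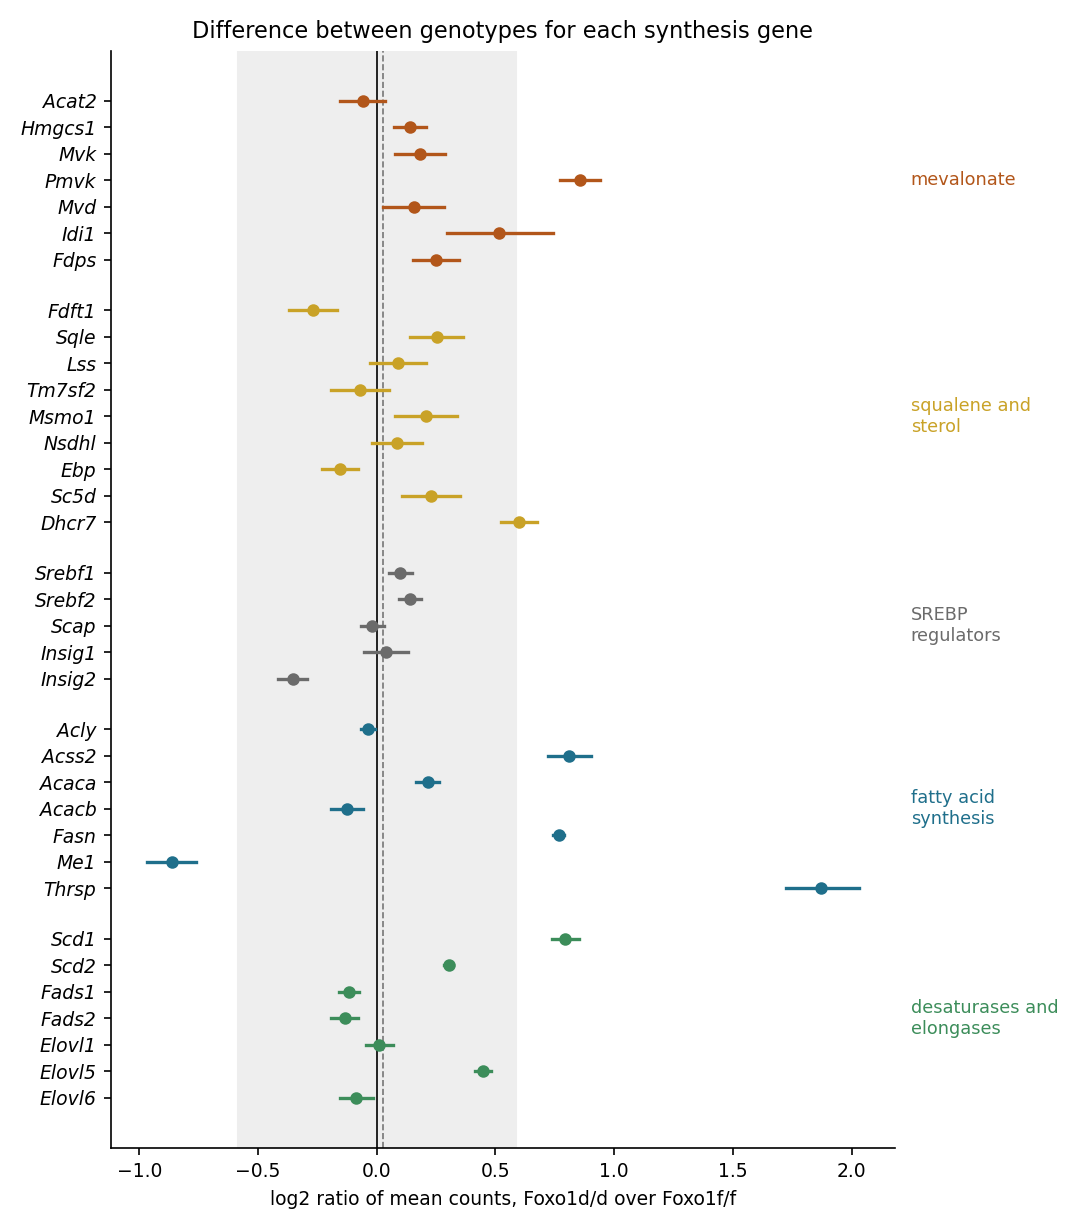
Log2 ratio of the mean counts, *Foxo1d/d* over *Foxo1f/f*, for each of the 35 genes in pathway order, with its 95% counting interval as a bar; the grey band spans 1.5-fold in either direction and the dashed line is the median of all genes, 0.02. *Thrsp* stands farthest to the right at 1.87, and *Me1* is the member left of the band, at -0.86.

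Among the 7 mevalonate enzymes, *Pmvk* stood apart. Phosphomevalonate kinase, its product, adds the second phosphate to mevalonate, and its mean counts were 589 and 1112, a log2 ratio of 0.85 (0.77 to 0.94), rank 425 from the highest of 15696 genes. *Idi1*, the isomerase that makes dimethylallyl diphosphate from isopentenyl diphosphate, had 88.3 and 132 counts and a ratio of 0.51 (0.29 to 0.74). Its count was the lowest of the 35 members and its interval the widest. *Fdps*, which joins the isoprenoid units to farnesyl diphosphate, had 512 and 636 counts and a ratio of 0.25 (0.15 to 0.35). The enzymes before and after the kinase in the pathway were nearer to 0. *Hmgcs1*, the synthase that forms HMG-CoA, had 1080 and 1242 counts (0.14), *Mvk*, the kinase of the preceding step, 445 and 527 (0.18), and *Mvd*, the decarboxylase of the following step, 300.3 and 349 (0.16). *Acat2*, a cytosolic thiolase that condenses acetyl-CoA, had 603 counts in both genotypes (-0.06), and its interval of -0.15 to 0.03 included 0. The median of the 7 ratios was 0.18. Per length the order of *Fdps* (13.5 RPKM in *Foxo1f/f*, the CPM divided by the exon length in kilobases) and *Pmvk* (13.2 RPKM) depended on the annotation, since a longer exon set that counts every annotated transcript put *Fdps* at 4.66 RPKM and *Pmvk* first. *Idi1* had the lowest level per length of the group, 1.12 RPKM, with both exon sets.

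The promoters of *Hmgcs1* and *Pmvk* are shown because 1 holds the sterol regulatory element by which SREBP is known to act, and the other belongs to the mevalonate gene with the widest difference. In each sequence, capitals mark matches to 4 motifs searched on both strands: the sterol regulatory element core TCACNCCAC, the E-box CACGTG, which reads the same on both strands, the NF-Y box CCAAT, whose complement reads ATTGG, and the FOXO site GTAAACA. Both are RefSeq promoters of GRCm38.p6, 250 bases before to 50 after the annotated start, written in the direction of the gene. *Hmgcs1* lies at chr13:119690101-119690400, plus strand, and *Pmvk*, in the first of its 2 promoters, at chr3:89454291-89454590, plus strand.
Hmgcs1: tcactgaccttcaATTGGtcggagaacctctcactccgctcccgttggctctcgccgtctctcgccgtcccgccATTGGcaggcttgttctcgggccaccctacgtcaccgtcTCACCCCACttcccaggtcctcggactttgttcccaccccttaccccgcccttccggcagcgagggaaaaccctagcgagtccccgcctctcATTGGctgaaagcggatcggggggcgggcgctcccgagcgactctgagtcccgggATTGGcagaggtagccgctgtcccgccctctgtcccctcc
Pmvk: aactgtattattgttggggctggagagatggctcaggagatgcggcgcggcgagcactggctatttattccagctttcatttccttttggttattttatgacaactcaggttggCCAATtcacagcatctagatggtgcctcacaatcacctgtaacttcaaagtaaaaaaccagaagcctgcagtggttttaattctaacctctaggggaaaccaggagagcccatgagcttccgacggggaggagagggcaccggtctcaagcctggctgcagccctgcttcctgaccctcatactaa
The *Hmgcs1* promoter held 1 sterol element, from -137 to -129 relative to the start, and 4 NF-Y boxes, of which 1 lay after the start. The *Pmvk* promoter held 1 NF-Y box, from -136 to -132, and its other promoter none of the motifs. Which start is used in uterus was not measured. A match is a description of the letters, not evidence of a bound site or of a cause.

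The 9 squalene and sterol enzymes were nearly level, with *Dhcr7* as the exception. *Dhcr7*, the reductase of the last step to cholesterol, had 786 and 1242 counts and a log2 ratio of 0.60 (0.52 to 0.67), just past the 1.5-fold limit. With TMM scaling its ratio was 0.57, short of the limit, as it also was with median ratio scaling, so that 5 instead of 6 members were then at least 1.5-fold higher. *Sqle*, the epoxidase that oxidizes squalene, had 388 and 483 counts (0.25, 0.14 to 0.36). *Fdft1*, squalene synthase, was lower by a small amount, with 561 and 486 counts and a ratio of -0.27 (-0.37 to -0.17). Its exons share 774 bases, 20.9% of their length, with exons of *Ctsb* on the other strand, which had 30385 and 36952 counts, and since strand-aware counting is not stated, the *Fdft1* value is uncertain. Smaller overlaps with counted genes, at most 8.16% of the exon length, were found for *Lss*, *Srebf1*, *Scd2*, *Tm7sf2*, *Acss2*, *Elovl1* and *Me1*, and 4 members share exon bases with gene models that have no row in the table. The largest such overlap was that of *Fdps*, 1124 bases or 77.4% of its exon length, with a model on the same strand, and those of *Scap* (785 bases), *Hmgcs1* (557) and *Idi1* (323) were with models on the other strand. How reads in these shared bases were counted is not known, so the *Fdps* value too is uncertain. The remaining enzymes act between squalene oxide and the last reduction. *Lss*, which closes the sterol ring, had 367 and 408 counts (0.09), *Tm7sf2*, a sterol reductase, 359 and 357 (-0.07), and *Msmo1*, the first oxidase of demethylation, 295 and 355 (0.21). *Nsdhl*, the decarboxylating dehydrogenase of the same demethylation, had 460 and 509 (0.09), *Ebp*, the sterol isomerase, 927 and 869 (-0.15), and *Sc5d*, the desaturase before *Dhcr7*, 322 and 394 (0.23). The intervals of *Lss*, *Tm7sf2* and *Nsdhl* included 0. The median over the 9 was 0.09, and *Ebp* had the highest level per length in both genotypes, 20.4 and 18.3 RPKM.

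The 5 SREBP pathway regulators were near 0 apart from *Insig2*, and none was past 1.5-fold. *Srebf1* and *Srebf2*, which encode the SREBP factors, had 2112 and 2360 counts (0.10, 0.05 to 0.15) and 2426 and 2791 counts (0.14, 0.10 to 0.19). The last exons of *Srebf1* and of *Rai1*, on opposite strands, share 109 bases, so a small part of the *Srebf1* reads is uncertain. *Scap*, the escort protein, had 2306 and 2376 counts (-0.02) and *Insig1* 599 and 642 (0.04), and both intervals included 0. *Insig2*, the retention factor that, unlike *Insig1*, is not itself a strong SREBP target, was lower, with 1535 and 1253 counts and a ratio of -0.35 (-0.42 to -0.29). Its level per length was 2.34 times that of *Insig1* in control and 1.78 times in knockout uteri. *Scap* (20.9 RPKM) and *Insig2* (19.9 RPKM) had the highest levels per length of the group in *Foxo1f/f*, but the order depended on the annotation, since the longer exon set put *Insig2* first at 16.9 RPKM and *Scap*, at 11.9 RPKM, below *Srebf1* and *Srebf2*. The 9 genes for proteases, ligases and other partners that process or degrade these proteins had no gene past the smaller limit. Their ratios ran from -0.14 to 0.21 with a median of 0.06, and the most abundant, *Mbtps1*, the protease of the first SREBP cleavage, had 8267 and 8573 counts (-0.01).

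Fatty acid synthesis held the widest differences of the 35 genes, in both directions. *Thrsp*, which encodes a small protein that promotes lipogenesis, had 140 and 538 counts, a log2 ratio of 1.87 (1.72 to 2.03) or 3.67-fold, rank 61 from the highest of 15696 genes. *Acss2*, which makes cytosolic acetyl-CoA from acetate, had 483 and 885 counts (0.81, 0.72 to 0.90). *Fasn*, the synthase that assembles palmitate, had 7682 and 13643 counts, a ratio of 0.77 (0.74 to 0.79) or 1.70-fold. *Me1*, the cytosolic malic enzyme that supplies NADPH for the synthase, went the other way, with 679 and 389 counts and a ratio of -0.86 (-0.97 to -0.76), rank 293 from the lowest. The enzymes between citrate and the synthase differed little. *Acly*, which splits citrate to acetyl-CoA, had 5522 and 5617 counts (-0.04, -0.07 to -0.01), *Acaca*, the carboxylase that commits acetyl-CoA to synthesis, 2058 and 2492 (0.21), and *Acacb*, the mitochondrial form that restrains fatty acid oxidation, 1234 and 1181 (-0.12). Per length *Acly* was the highest of the group in *Foxo1f/f* (45.8 RPKM, *Fasn* 29.3) and *Fasn* in *Foxo1d/d* (49.8 RPKM, *Acly* 44.7). The median of the 7 ratios was 0.21 and the median of their sizes without sign 0.77, against 0.14 for the sizes over all genes.

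The promoters of *Fasn* and *Thrsp* are shown as those of the most abundant and of the most different gene of this group, with capitals as before. *Fasn* lies at chr11:120824498-120824797, minus strand, and *Thrsp* at chr7:97417501-97417800, minus strand, in GRCm38.p6.
Fasn: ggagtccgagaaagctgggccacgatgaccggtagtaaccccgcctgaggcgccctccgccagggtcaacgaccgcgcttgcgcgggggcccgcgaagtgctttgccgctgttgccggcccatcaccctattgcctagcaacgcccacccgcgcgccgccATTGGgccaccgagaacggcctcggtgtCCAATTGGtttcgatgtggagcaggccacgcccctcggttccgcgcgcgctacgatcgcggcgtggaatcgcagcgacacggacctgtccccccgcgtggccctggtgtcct
Thrsp: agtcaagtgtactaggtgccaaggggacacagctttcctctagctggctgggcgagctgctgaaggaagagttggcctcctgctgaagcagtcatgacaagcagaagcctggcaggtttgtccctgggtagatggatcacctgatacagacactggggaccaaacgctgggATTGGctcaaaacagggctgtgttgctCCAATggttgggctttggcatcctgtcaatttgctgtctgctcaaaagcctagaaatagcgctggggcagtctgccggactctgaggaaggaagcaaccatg
The *Fasn* promoter held 3 NF-Y boxes, from -90 to -86, -62 to -58 and -59 to -55, of which the last 2 lie on opposite strands and overlap. The *Thrsp* promoter held 2, from -79 to -75 and -52 to -48. Neither window held the sterol element core, the E-box or the FOXO site as spelled here, which says only that these letters are not in it.

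The desaturases and elongases divided by enzyme. *Scd1*, a stearoyl-CoA desaturase that makes oleate and palmitoleate, had 1254 and 2270 counts and a log2 ratio of 0.79 (0.74 to 0.85). *Scd2*, its neighbour 87.6 kb away on chromosome 19, was the most abundant member in both genotypes with 14031 and 18067 counts, and its ratio was 0.30 (0.29 to 0.32). The Scd genes are close paralogs, so reads may have been shared or lost among them and the values of *Scd1* and *Scd2* are uncertain to that extent. Per length *Scd2* was 9.91 times as abundant as *Scd1* in control uteri and 7.05 times in knockouts, at 98.5 and 122 RPKM for *Scd2* and 9.93 and 17.2 RPKM for *Scd1*. *Elovl5*, the elongase of polyunsaturated chains, had 4285 and 6099 counts (0.45, 0.42 to 0.48). The enzymes that desaturate polyunsaturated chains did not share that difference: *Fads1* had 3248 and 3127 counts (-0.12) and its neighbour *Fads2* 1761 and 1673 (-0.14). *Elovl1*, which elongates very long chains, had 1596 and 1678 counts (0.01), and *Elovl6*, which elongates palmitate to stearate, 1139 and 1120 (-0.09). The sign of *Elovl1*, and with it of the group's median of 0.01, turned to -0.02 with TMM scaling and -0.01 with median ratio scaling. Either scaling lowered all members alike, and the interval of *Elovl1*, -0.05 to 0.07, already included 0.

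Most markers of fat cells were higher in *Foxo1d/d* uteri. Of 15 adipocyte markers, 12 passed the filter, and 8 of them (66.7%) were at least 1.5-fold higher, against 5.43% of all genes. None was lower by that fold, against 3.51% of all genes, and the median log2 ratio was 1.76. Those 8 were *Cidec* (2.19), *Retn* (2.16), *Car3* (2.16), *Plin1* (2.10), *Cfd* (1.86), *Adipoq* (1.82), *Fabp4* (1.71) and *Lep* (1.70), which encode lipid droplet proteins, adipokines and other proteins made mainly by fat cells. *Adipoq*, the adiponectin gene, had 53.7 and 201 counts, and *Plin1*, the perilipin of the fat droplet, 19.3 and 90. *Lep*, with 7.67 and 28.3 counts (interval 1.17 to 2.48), was under 10 in controls and passed the filter, a mean over both genotypes, through its knockout level, so its place among the 8 is less sure. *Lpl*, the lipoprotein lipase gene, was the most abundant of the list, with 1502 and 2233 counts (0.51), and *Plin4*, *Lipe* and *Pparg* had ratios of -0.01, 0.18 and 0.37. *Adig* (2.67 and 12.7 counts), *Cidea* (8.67 and 8.00) and *Ucp1* (1.00 and 0.67) stayed under the filter, and no gene of the list was at 0 in either genotype. The list summed to 146 CPM in controls and 261 CPM in knockouts, a difference of 114 CPM. Fat cells themselves make fatty acids, and dissected uteri can carry attached fat. Of the 14 fatty acid genes among the members, 8 had a ratio above 0 and 6 below. They ran from *Me1* at -0.86 to *Thrsp* at 1.87. The part of fat cells in the differences of the synthesis genes was not tested.

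**Figure D2:**
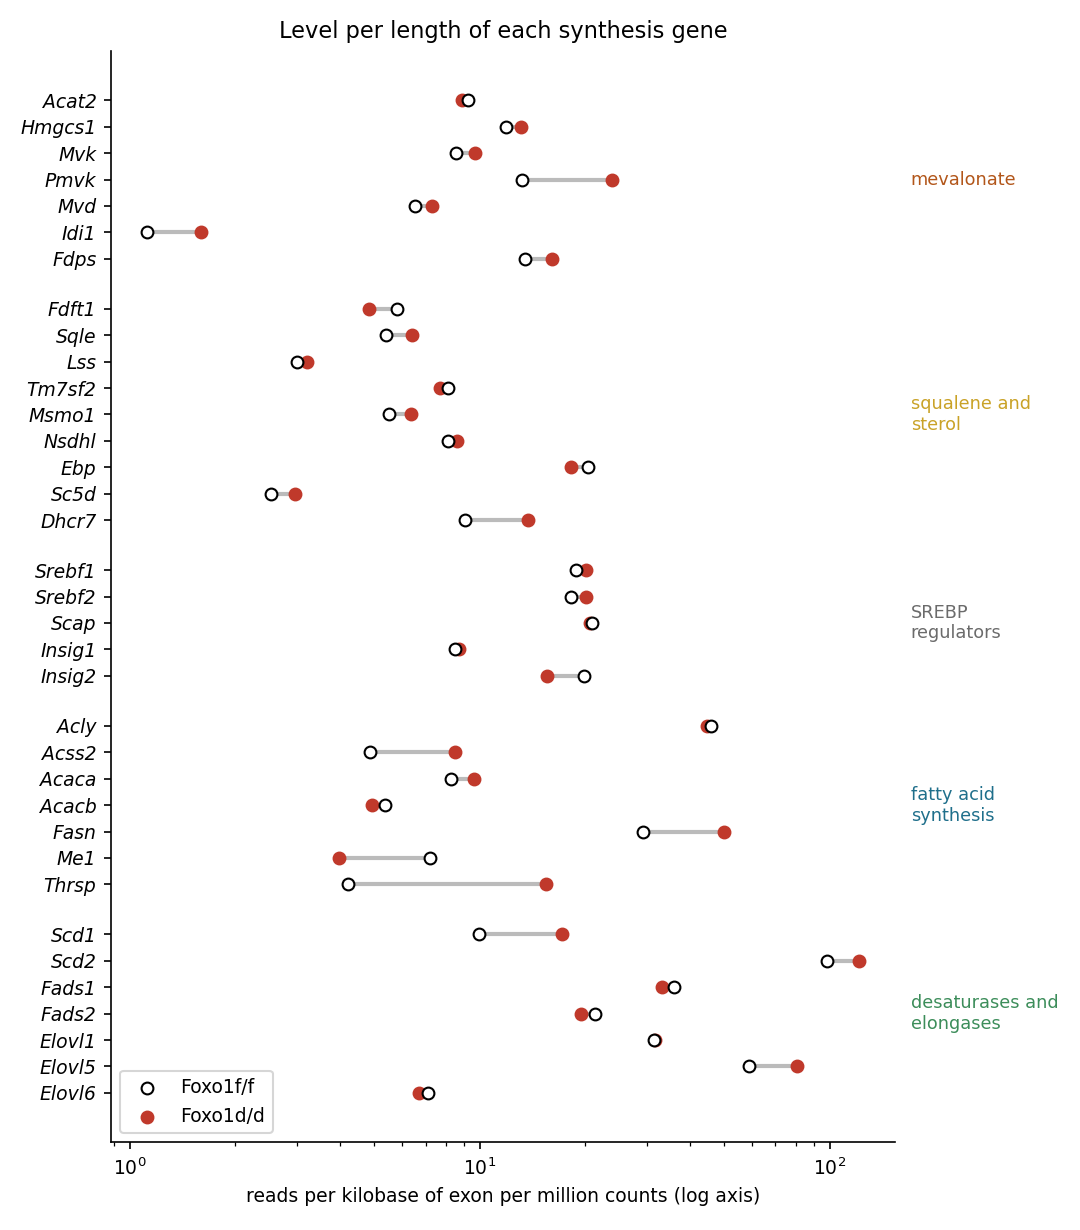
Level of each gene in RPKM, the CPM divided by the exon length in kilobases, on a log axis, open circles for *Foxo1f/f* and filled circles for *Foxo1d/d*, 1 mean of 3 libraries each. Levels ran from 1.12 for *Idi1* to 98.5 for *Scd2* in *Foxo1f/f*, and *Thrsp* has the widest gap, from 4.21 to 15.5.

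Summed over the 35 genes, the level was 2380 CPM in controls and 2858 CPM in knockouts, a 1.20-fold difference. Few genes made up that net difference of 478 CPM. *Fasn* accounted for 43.2% of it, *Scd2* for 26.3%, *Elovl5* for 12.5% and *Scd1* for 7.38%, while *Pmvk* added 3.82% and *Dhcr7* 3.24%. *Scd2* and *Fasn* together held 34.9% of the summed level in controls and 40.7% in knockouts. By arm, the 16 cholesterol enzymes summed to 309 and 356 CPM (log2 ratio of the sums 0.20, median of the genes 0.17), and the 14 fatty acid genes to 1727 and 2156 CPM (log2 ratio of the sums 0.32, median of the genes 0.11). The 5 regulators summed to 344 and 346 CPM. Thus the sum of the fatty acid arm differed more than its middle gene, since its abundant genes *Fasn*, *Scd2* and *Elovl5* were on the higher side. Of the 14 genes of the arm, 6 had a ratio below 0, among them the abundant *Acly* (211 and 206 CPM, ratio -0.04).

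**Figure D3:**
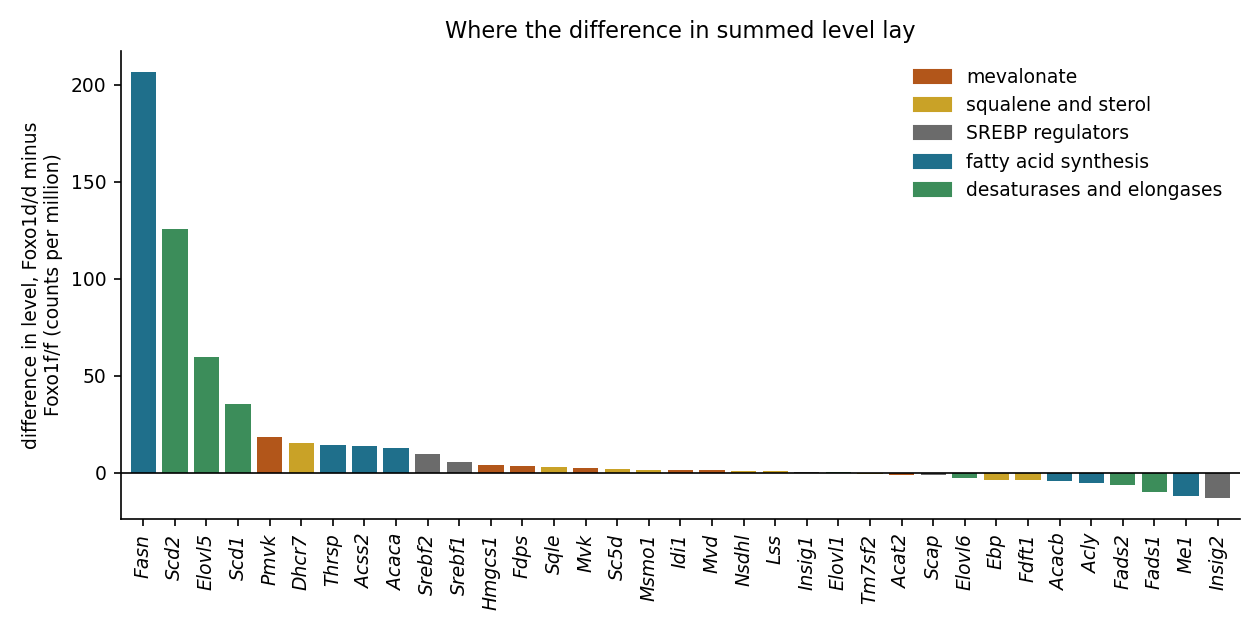
Difference in level between the genotypes, *Foxo1d/d* minus *Foxo1f/f* in CPM, for each of the 35 genes in order of size, coloured by role. *Fasn* (206) and *Scd2* (126) stand above the rest, and *Insig2* and *Me1* are at the low end.

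Markers of other cell types differed less, apart from gland products. For comparison, 5.43% of all genes that passed the filter were at least 1.5-fold higher and 3.51% lower. The 5 gland markers had a median log2 ratio of -4.46, with *Prss28* (-6.56), *Spink3* (-4.70) and *Prss29* (-4.46), secreted gland products, at least 1.5-fold lower, while *Foxa2*, the transcription factor of the glands, was at 0.04. The summed level of the gland list, led by *Prss29*, was 885 and 71.4 CPM. Of the 10 epithelial markers, 2 were at least 1.5-fold higher, *Krt19* (1.22) and *Elf3* (0.86), the median was 0.29, and the summed level was 835 and 1016 CPM. Of the 6 leukocyte markers, *Cd3e* of T cells (1.09) was past 1.5-fold, the median was 0.30, and the sum, led by *Ptprc*, was 290.4 and 353 CPM. The 8 stromal, 8 smooth muscle and 6 endothelial markers had medians of -0.08, -0.30 and -0.21, none past 1.5-fold, and sums of 5189 and 5147, 7224 and 5829, and 1248 and 1078 CPM. The part of these cell types in the differences of the synthesis genes was not tested.

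Among genes that take up, move and export sterols, *Lrp8*, a lipoprotein receptor, had 72.7 and 173 counts, a log2 ratio of 1.18 (0.97 to 1.42). *Abca1*, which exports cholesterol and was the most abundant of these genes, had 12214 and 9746 counts (-0.39, -0.41 to -0.36).

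Around fatty acid synthesis, 35 further genes of lipogenesis and acyl chain handling were compared, of which 34 passed the filter. At least 1.5-fold higher were 3 (8.82%), against 5.43% of all genes that passed the filter, and lower 4 (11.8%), against 3.51%. The median log2 ratio was 0.07. The higher genes were *Pnpla3*, a lipid droplet hydrolase (15.7 and 54.7 counts, 1.68), *Dgat2*, which completes triglycerides (1496 and 3409, 1.13), and *Olah*, a thioesterase (10.7 and 24.3, 1.06). The counts of *Olah* were low and its interval, 0.53 to 1.72, reached below the limit of 0.58, so its place among the 3 is less sure. The lower genes were *Acsl4*, which activates arachidonate and was the most abundant of the list in *Foxo1f/f* (4498 and 2443, -0.94), *Acss3*, a mitochondrial acyl-CoA synthetase (1852 and 1032, -0.90), *Elovl7*, an elongase (246 and 143, -0.84), and *Mlxipl*, the carbohydrate response factor of lipogenesis (153 and 105, -0.60). The interval of *Mlxipl*, -0.81 to -0.39, also reached inside the 1.5-fold limit. The part of fat cells in the differences of these further genes was not tested. Besides *Me1*, the malic enzymes and the suppliers of cytosolic NADPH that were compared here were near or above 0. *G6pdx* had a ratio of 0.32, *Pgd* 0.01, *Idh1* 0.02, *Me2* 0.40 and *Me3* 0.51.

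**Figure D4:**
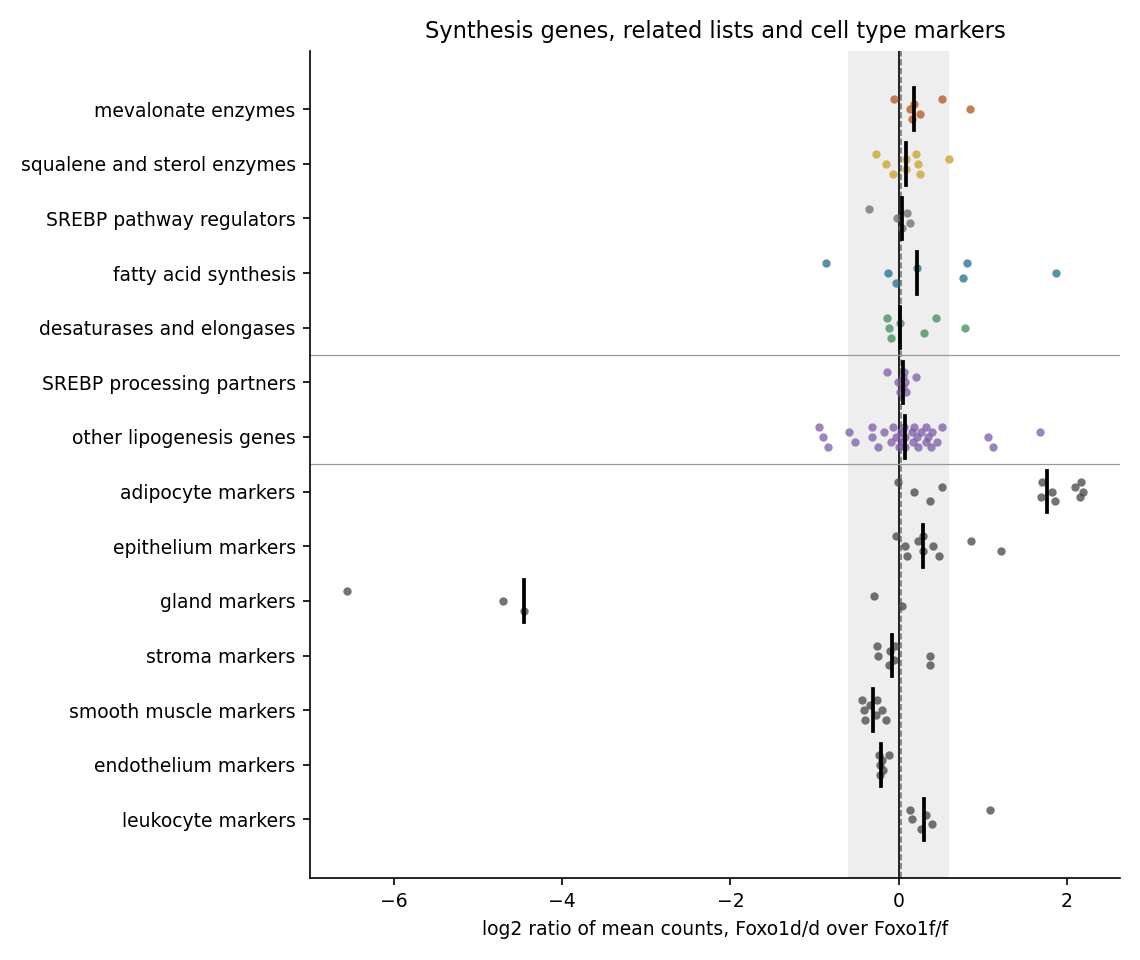
Log2 ratio of mean counts, *Foxo1d/d* over *Foxo1f/f*, with 1 point a gene that passed the filter and a black bar at each list's median, for the role groups of the 35 genes, 2 related lists and 7 marker lists. The grey band spans 1.5-fold, the dashed line is the median of all genes, and the medians of the adipocyte markers (1.76) and of the gland markers (-4.46) lie outside the band.

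The members were compared for promoter letters as a feature that the rule had not used. RefSeq promoters were matched by symbol for 29 of the 35 members, 39 promoters in all, and 32851 promoters of 27025 genes formed the background. The NF-Y box CCAAT was in at least 1 promoter of 24 of the 29 members (82.8%), against 41.1% of all genes and 42.0% of the genes that passed the filter. Counted by promoter, it was in 25 of 39 (64.1%) against 37.4% of all promoters, and 12 of 39 (30.8%) held more than 1 match against 11.7%. Of the 47 matches, 30 lay in the last 100 bases before the start. The box was in all 5 of the members at least 1.5-fold higher that have a promoter entry, in *Me1*, and in 18 of the 23 members within 1.5-fold. The sterol element core TCACNCCAC was in 1 of 29 members (3.45%) against 1.44% of all genes and 1.51% of those that passed the filter, and the E-box CACGTG in 5 (17.2%), *Dhcr7*, *Elovl5*, *Insig1*, *Sc5d* and *Scap*, against 8.09% and 11.1%. The FOXO site GTAAACA was in 1 member, *Elovl6* (3.45%), against 4.05% and 3.07%, and no match of different motifs overlapped in a member.

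**Figure D5:**
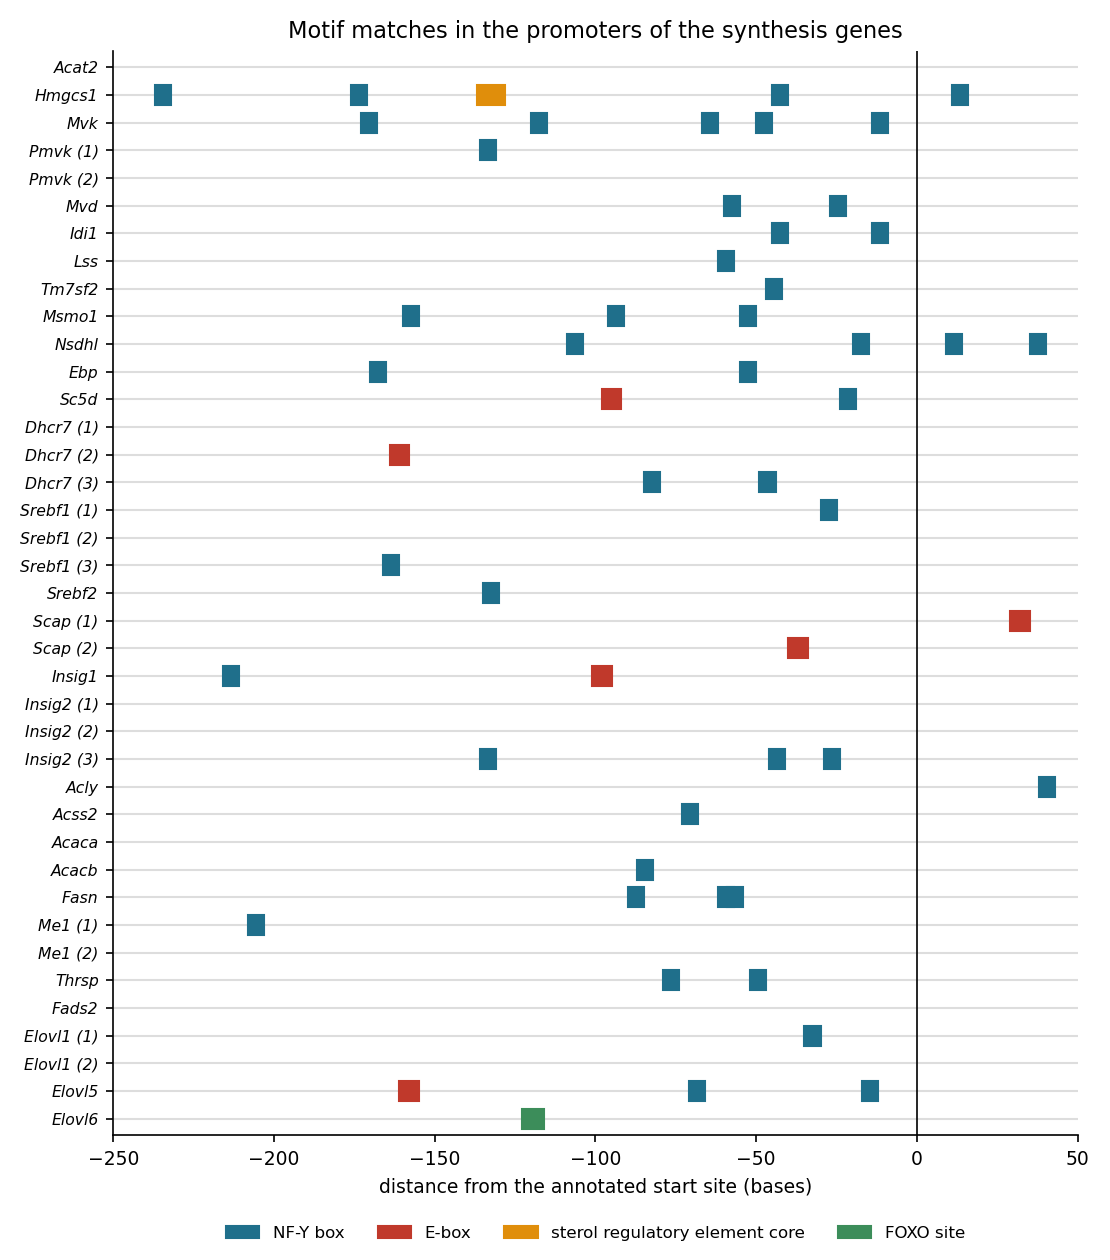
Position of each motif match relative to the annotated start site in the 39 promoters of 29 genes, numbered by coordinate where a gene has several, some of which overlap. Of the 47 NF-Y boxes, in blue, 30 lie between the start and 100 bases before it, and the sterol element core is in *Hmgcs1* alone.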

How the data were processed

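RNA of whole uteri was sequenced from 3 libraries a genotype, each from 2 mice. Per the study's methods, the authors made poly(A) libraries, sequenced paired ends, trimmed the reads and mapped them with STAR to mm10 with RefSeq genes, removed duplicates with Picard and counted reads per gene with HTSeq. The submitters' processing notes name the build mm9 instead, and the table holds no coordinates by which to tell. Versions are not given in the sources used here. The deposited table holds mean raw count values for each genotype, averaged by the authors, and their edgeR fold change, log2 CPM, p-value and FDR, which were not used. Removal of duplicates can lower the counts of abundant genes, and counting by strand is not stated.

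The edgeR test planned for single-library counts was not run, because those were not used here. Instead the log2 ratio of the mean counts was computed with a pseudocount of 1, after division by the total, with Wilson intervals at 95% from the summed counts (78375043 and 81773890), in Python 3.11.15 with pandas 2.3.3. Genes with a mean over the genotypes of at least 10 were kept. The ratio and interval were tested on simulated data. Exon lengths came from GENCODE M21 (GRCm38), with basic transcripts, and gene positions and promoters from RefSeq GRCm38.p6. Other scalings, pseudocounts and filters were tried.

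Members and lists were chosen with earlier results of these data known. Named in full were members past 1.5-fold, the 3 of each role group with the largest size of log2 ratio, and the highest per length. Of each related or marker list, genes past 1.5-fold, at most 8, and the most abundant one were named; other genes named were chosen after their values were seen. Some genes of the related lists are not reported here.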

Additional observations from a re-analysis of the deposited data

How the results depend on the processing

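The results were recomputed with a pseudocount of 0.1 or 5, with median ratio scaling, TMM scaling or totals without the 100 most abundant genes, with no filter or a minimum mean count of 100, and, chosen after seeing the data, without *Msmo1*. The counts of members past each limit were the same under 6 of these 8 settings. The exceptions were TMM and median ratio scaling, where *Dhcr7* fell short of 1.5-fold and the higher members numbered 5. The medians of all members ran from 0.11 to 0.14. The sign turned only for *Elovl1*, and with it for the median of the desaturases and elongases, under the same scalings. Values that moved just outside their counting interval were those of *Scd2* and *Fasn*. *Scd2* was at 0.28 with either scaling, and *Fasn* at 0.741 with TMM scaling, where its interval began at 0.744. TMM scaling lowered all members by the same 0.026 and median ratio scaling by 0.022, and these genes had the narrowest intervals.

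No paired analysis was possible because the table gives 1 mean count a genotype and no column carries a replicate number. For the same reason leaving out each replicate, the replicate block and DESeq2 were not run. The spread between pools of mice is unknown here, so the counting intervals are a lower limit of the error.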
